A study of Oryza sativa with 6 samples.

Results

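The pathogenesis-related (PR) proteins PR1a, PR1b, PR5, PBZ1 and PR10b and the chitinases Cht1, Cht2 and Cht3 are gene products by which a rice plant's defence state is commonly read. They were chosen as 8 listed loci, and every probe whose name begins with one of them was taken, which gave 21 of 42418 probes and 8 of 29689 loci on the array. RNA came from the middle of the internode below the uppermost one, at heading, in rice of the cultivar Nipponbare. The knockout group was 1 edited line of the T2 generation, OsCAld5H1-KO-a-9-2, and it was set against unedited wild-type plants. OsCAld5H1 encodes coniferaldehyde 5-hydroxylase, which leads from guaiacyl to syringyl lignin. Each genotype had 3 biological replicates with 1 array each, and the labels name no pathogen, elicitor or wound, so the values describe plants without a stated challenge.

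PR proteins are made in quantity when a plant meets a pathogen or the hormones that report one, mainly salicylate and jasmonate. PR1 proteins are small secreted proteins and PR5 proteins resemble thaumatin. PR10 proteins, among them the probenazole-inducible PBZ1, stay inside the cell. Chitinases cut chitin, the polymer of fungal cell walls, and the fragments are bound at the rice cell surface by the receptor pair CEBiP and CERK1. Lignin, abundant in grass stems, is itself a barrier to pathogens.

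Some facts of the arrays bear on every value. The slide that held the 3 knockout arrays held no wild-type array, and the reverse, so the effect of genotype cannot be told apart from that of slide. With 3 arrays per genotype the precision is low. Knockout replicate 1 stood apart from the other knockout arrays: its log2 signals correlated with theirs across probes at 0.968 and 0.972, against 0.984 between those 2 arrays and 0.991 to 0.992 among the wild-type arrays. It also had the lowest signal of the 6 arrays for the secondary wall cellulose synthases CESA4, CESA7 and CESA9 at their brightest probes. These signals lay 0.46, 0.51 and 1.31 log2 units below their own 6-array means. The other internode markers OSH15, CAldOMT1 and CAD2 deviated from their means there by only 0.05, 0.04 and -0.05. At the CESA4 probe AK105078 knockout replicate 3 was the lowest array, at a log2 signal of -0.30, and knockout replicate 1 read 1.51. The 6 internode markers were well above background on every array, and their summed linear signal, relative to the 75th percentile, was 237 to 254 in the knockout and 221 to 239 in the wild-type. CAldOMT1 carried most of this sum, with mean log2 signals of 7.34 in the knockout and 7.19 in the wild-type. The cellulose synthases weighed little in it. The 5 green tissue markers summed to 119 to 185 in the knockout and 121 to 215 in the wild-type, mostly through LHCB and CAB1R. At its brightest probe RBCS2 differed by 1.58 (adjusted p 0.112) without overlap of the genotypes, which overlapped at its other probes. RBCS3 differed by -0.49 (adjusted p 0.170), also without overlap. The 2 tested seed and root markers summed to 0.0862 to 0.0985 in the knockout and 0.101 to 0.132 in the wild-type. That sum rests mainly on GluA2, while GluA1 (Os01g0762500), a glutelin of the seed, was lower in the knockout at each of its 3 probes. Its probe M17513 read -8.36, -9.12 and -8.29 in the knockout and -5.09, -4.58 and -5.70 in the wild-type, with an adjusted p of 0.0113, and was not well above background on any knockout array, so it was at least 4.14-fold lower there at this scaling. Probe X05662 differed by -2.57 (adjusted p 0.0440) and X05661 by -2.18 (adjusted p 0.0512). All 3 probes met the signal filter, described below, through the wild-type arrays alone, so their differences and calls are partly fixed by the filter. With normexp the differences were -0.64, -0.65 and -0.68 at M17513, X05662 and X05661 and none passed, the M17513 call ended without wild-type replicate 1 (adjusted p 0.0612), and the part of this marker in the values below was not tested. RCc3, the root marker of that list, was not well above background on enough arrays to be tested. The probe for OsCAld5H1 (Os10g0512400), which does not test the edit itself, read -4.00, -1.78 and -1.23 in the knockout and -0.54, -0.52 and -0.05 in the wild-type, a difference of -1.97 ± 0.70 (SE) with an adjusted p of 0.205.

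No PR protein or chitinase differed between the genotypes by a test across the whole array. All values below are log2 signals relative to the 75th percentile of the array's gene spots, so 0 is a fairly bright spot and each unit is a doubling. A probe entered the test where the scanner software called it well above background on all 3 arrays of at least 1 genotype. This held for 16 of the 21 probes and for 5 of the 8 loci, those of PR1a, PBZ1, PR10b, Cht1 and Cht2. limma with Benjamini-Hochberg adjustment called 0 of the 16 probes, against a background of 3.16% of the 32134 probes tested. By the brightest tested probe it called 0 of the 5 loci, against 3.41% of 21798 loci, where 2.17% of all loci tested were called higher in the knockout. At an unadjusted p under 0.05, 1 of the 16 probes passed, against 19.1% of all probes, and 1 had genotypes that did not overlap, against 27.0%; that probe lay higher in the knockout, which held for 13.5% of all probes tested. Of the 5 loci, 0 passed an unadjusted p under 0.05, against 19.6% of all loci, and 0 had genotypes without overlap, against 27.4%. Differences ran from -1.44 to 2.25 and adjusted p from 0.124 to 0.931. The difference was positive, that is, higher in the knockout mean, at 14 of the 16 probes, but 8 of these 14 belong to the 1 locus Cht1. The median over the 5 loci was 0.22, beside 0.0014 over all loci. PR1a entered the test through the wild-type arrays alone and PR10b through the knockout arrays alone, so their differences and this median are partly fixed by the filter.

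**Figure D1:**
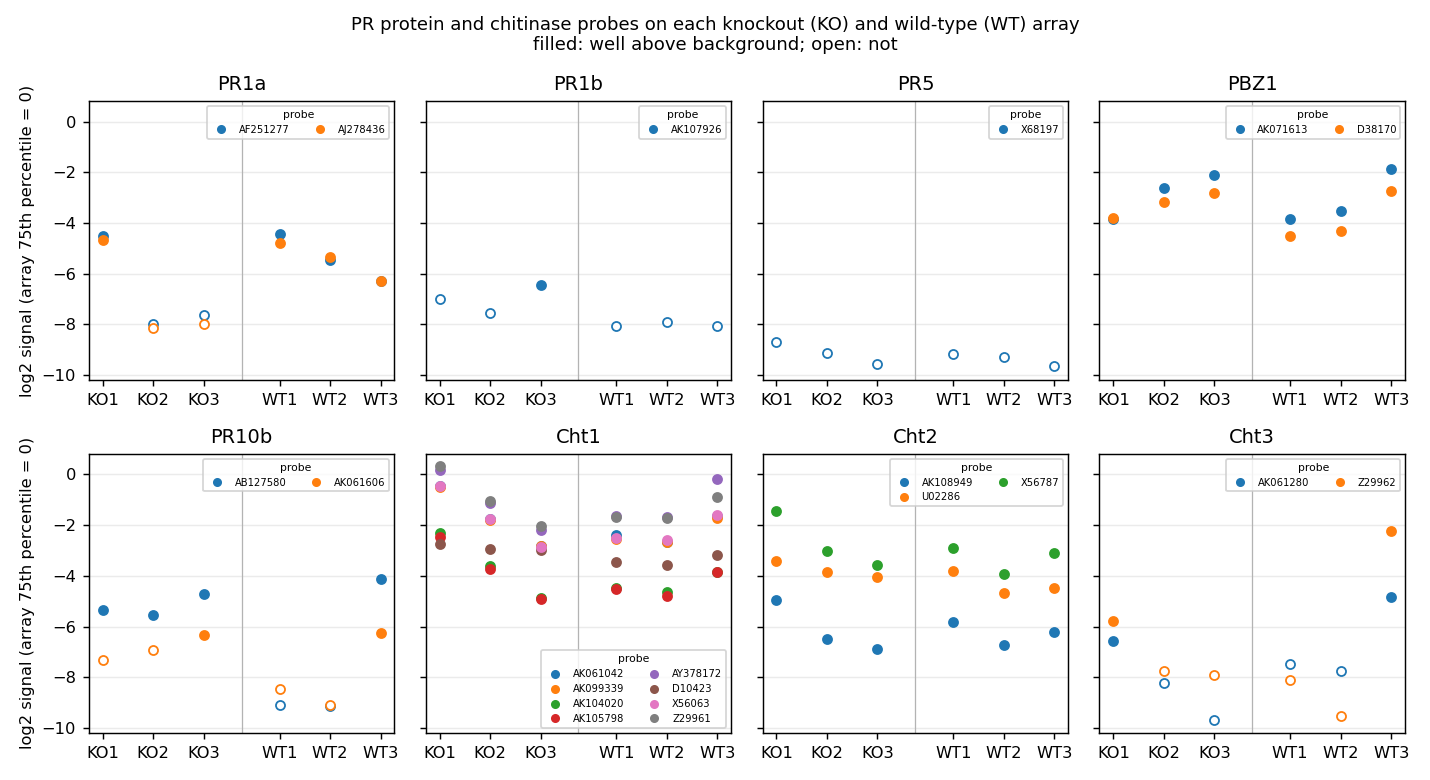
Log2 signal relative to the array's 75th percentile (vertical axis) of each PR protein and chitinase probe on each knockout (KO) and wild-type (WT) array (horizontal axis). Points are probes, coloured by probe accession, and open points were not well above background; single arrays stand far from the others of their genotype, as for PR10b and Cht3 in wild-type replicate 3 and PR1a in knockout replicate 1.

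PR1a (Os07g0129200, chromosome 7), a secreted PR1 protein widely used as a marker of salicylate responses, split the knockout arrays. Its probe AF251277 read -4.50, -7.97 and -7.63 in the knockout and -4.43, -5.48 and -6.28 in the wild-type. Knockout replicate 1 lay within the wild-type range, and the other knockout arrays lay below every wild-type array and were not well above background. The means were -6.70 ± 1.91 in the knockout and -5.40 ± 0.93 in the wild-type (SD, n = 3 each). The difference of -1.31 ± 0.99 (SE; 95% interval -3.71 to 1.09) did not pass limma's test, with an adjusted p of 0.524. Probe AJ278436 read -4.66, -8.14 and -7.97 in the knockout and -4.79, -5.34 and -6.30 in the wild-type, the same division of the arrays, with a difference of -1.44 and an adjusted p of 0.478. Both probes are annotated to another accession than the transcript of the locus. Without knockout replicate 1 the differences were -2.41 (adjusted p 0.0733) and -2.58 (adjusted p 0.0477), so AJ278436 passed there, and leaving out any other array gave no call at either probe. Knockout replicate 1 was the only knockout array with either probe well above background, so this call is partly fixed by the filter and by the array left out. Without that array PR1a was not well above background in the knockout, and AF251277 was at least 3.95-fold lower than in the wild-type at this scaling, whereas normexp background correction, which adds an offset and so compresses low signals, gave -0.25 with all 6 arrays.

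PR1b (Os01g0382000, chromosome 1), another secreted PR1 protein, was near the detection limit. Its probe AK107926 read -7.00, -7.55 and -6.44 in the knockout and -8.06, -7.90 and -8.08 in the wild-type. Every knockout array was above every wild-type array, but only knockout replicate 3 was well above background, so the locus was not tested. PR5 (Os12g0628600, chromosome 12), the thaumatin-like protein, read -8.71, -9.14 and -9.56 in the knockout and -9.17, -9.29 and -9.64 in the wild-type with probe X68197. It was not well above background on any of the 6 arrays and no difference can be drawn from it. In whole tissue, fewer cells of a type and less RNA per cell cannot be told apart at PR1a, PR1b or any gene below.

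PBZ1 (Os12g0555500, chromosome 12), the PR10 protein named for its induction by the plant activator probenazole, was well above background on all arrays of both genotypes. Probe AK071613 read -3.86, -2.61 and -2.13 in the knockout and -3.84, -3.53 and -1.88 in the wild-type. The lowest values of the genotypes were nearly equal, the highest was wild-type replicate 3, and the genotypes overlapped over nearly their whole range. The difference was 0.22 ± 0.65 (SE; 95% interval -1.35 to 1.79) with an adjusted p of 0.885, and it turned to -0.15 both without wild-type replicate 1 and without knockout replicate 3. The interval does not exclude a change of several fold in either direction. Probe D38170, annotated to another accession than the transcript of the locus, read -3.82, -3.19 and -2.80 in the knockout and -4.50, -4.33 and -2.76 in the wild-type, and differed by 0.60 ± 0.51 with an adjusted p of 0.579. In both probes wild-type replicate 3 was the highest array.

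PR10b (Os12g0555000, chromosome 12), a second PR10 locus of the same chromosome, was well above background in 1 wild-type array and in all knockout arrays. Probe AB127580 read -5.35, -5.53 and -4.73 in the knockout and -9.10, -9.14 and -4.14 in the wild-type. The 3 knockout arrays stood close together, wild-type replicate 3 was above all of them, and the other wild-type arrays were not well above background. The means were -5.21 ± 0.42 in the knockout and -7.46 ± 2.88 in the wild-type (SD, n = 3 each), and the difference of 2.25 ± 1.35 (SE; 95% interval -1.02 to 5.53) had an adjusted p of 0.423. Probe AK061606 placed the arrays alike, at -7.33, -6.92 and -6.34 in the knockout and -8.45, -9.09 and -6.24 in the wild-type, but only replicate 3 of each genotype was well above background and it was not tested. Without wild-type replicate 3 the difference at AB127580 was 3.92 with an adjusted p of 0.0223, and the knockout was at least 3.97-fold higher than the wild-type. That fit left out the only wild-type array with the probe well above background, and the probe had entered the test through the knockout arrays alone. Its direction and call are therefore partly fixed by the filter and by the array left out. Leaving out any other array gave no call. With all 6 arrays, normexp gave 0.27.

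Cht1 (Os06g0726200, chromosome 6) had 8 probes, all well above background on all 6 arrays. The probe of highest signal, AY378172, read 0.19, -1.11 and -2.19 in the knockout and -1.64, -1.70 and -0.20 in the wild-type. The knockout arrays thus held both the highest and the lowest value, and the wild-type arrays fell between. The means were -1.04 ± 1.19 in the knockout and -1.18 ± 0.85 in the wild-type (SD, n = 3 each). The difference was 0.14 ± 0.69 (SE; 95% interval -1.52 to 1.81) with an adjusted p of 0.931. Without knockout replicate 1 it was -0.47, without wild-type replicate 1 it was -0.09, without wild-type replicate 2 it was -0.12, and with array weights it was -0.29.

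Other Cht1 probes placed the arrays in much the same way. Z29961 read 0.32, -1.05 and -2.03 in the knockout and -1.67, -1.72 and -0.89 in the wild-type. AK104020, a dimmer probe, read -2.29, -3.60 and -4.89 in the knockout and -4.46, -4.65 and -3.84 in the wild-type. Knockout replicate 1 was the highest array at all 8 Cht1 probes. In the 7 probes annotated to the coding sequence and 3′ untranslated region, knockout replicate 3 was the lowest, the arrays spanned 2.33 to 2.59 log2 units, and the differences of 0.14 to 0.72 had adjusted p from 0.587 to 0.931.

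The remaining Cht1 probe, D10423, is annotated to the 5′ untranslated region and coding sequence and gave another picture. It read -2.74, -2.94 and -2.97 in the knockout and -3.45, -3.58 and -3.19 in the wild-type. The arrays spanned only 0.837 log2 units and every knockout array was above every wild-type array. The means were -2.88 ± 0.12 in the knockout and -3.41 ± 0.20 in the wild-type (SD, n = 3 each), a difference of 0.52 ± 0.14 (SE; 95% interval 0.18 to 0.87). limma's unadjusted p was 0.00997, and the adjusted p of 0.124 did not pass. The probes of this one locus therefore disagree: the mean signal of the 7 probes toward the 3′ end exceeded that of D10423 by 1.93, 0.82 and -0.25 in knockout replicates 1, 2 and 3, and by 0.62, 0.61 and 1.23 in wild-type replicates 1, 2 and 3. Over the 454 loci with probes of both kinds, the median excess was 1.92 to 1.93 in the knockout and 1.82 to 1.83 in the wild-type. The median over these loci thus did not show the array-to-array shift seen at Cht1, but Cht2, described below, shifted alike on some arrays.

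**Figure D2:**
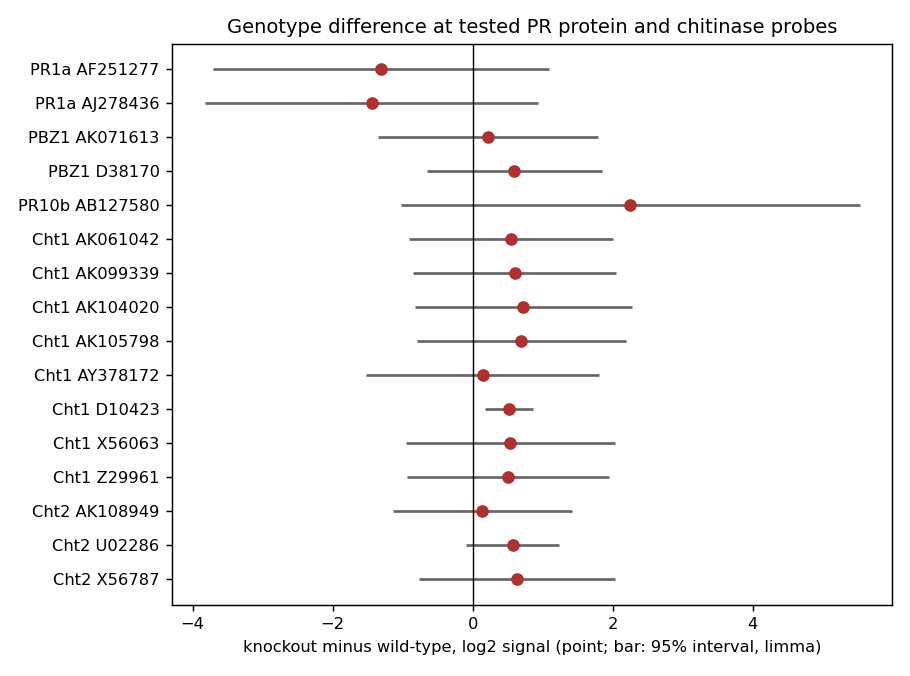
Knockout minus wild-type difference in log2 signal (horizontal axis) for each of the 16 tested PR protein and chitinase probes, with 95% intervals from limma. All intervals include 0 except that of the Cht1 probe D10423, 0.18 to 0.87, whose adjusted p was 0.124.

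Cht2 (Os05g0399300, chromosome 5) had 3 probes, well above background on all arrays. Its probe X56787 read -1.44, -3.01 and -3.58 in the knockout and -2.91, -3.91 and -3.11 in the wild-type. Knockout replicate 1 was again the highest array, and the other knockout arrays lay within the wild-type range. The means were -2.68 ± 1.11 in the knockout and -3.31 ± 0.53 in the wild-type (SD, n = 3 each), and the difference of 0.64 ± 0.58 (SE; 95% interval -0.77 to 2.04) had an adjusted p of 0.600. Without knockout replicate 1 it was 0.02. Probe U02286, annotated to the 5′ untranslated region and coding sequence, read -3.40, -3.84 and -4.04 in the knockout and -3.82, -4.68 and -4.50 in the wild-type, with a difference of 0.57 ± 0.28 and an adjusted p of 0.324. Probe AK108949 read -4.96, -6.49 and -6.89 in the knockout and -5.82, -6.74 and -6.21 in the wild-type, with a difference of 0.14 that turned to -0.44 without knockout replicate 1. As at Cht1, knockout replicate 1 was the highest array at all 3 probes. The mean signal of X56787 and AK108949 exceeded that of U02286 by 0.20, -0.91 and -1.20 in knockout replicates 1, 2 and 3. In wild-type replicates 1, 2 and 3 this excess was -0.55, -0.64 and -0.16. It was highest in knockout replicate 1, next in wild-type replicate 3 and lowest in knockout replicate 3, the same places as at Cht1. Knockout replicate 2 was placed otherwise, above wild-type replicates 1 and 2 at Cht1 and below them at Cht2. The cause of these shifts was not tested.

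Cht3 (Os06g0726100, chromosome 6), the neighbour of Cht1, was measured well above background in knockout replicate 1 and wild-type replicate 3 alone, and was not tested. Probe Z29962 read -5.77, -7.75 and -7.90 in the knockout and -8.10, -9.52 and -2.24 in the wild-type, a span of 7.28 log2 units over the arrays. Probe AK061280 read -6.59, -8.23 and -9.70 in the knockout and -7.49, -7.75 and -4.83 in the wild-type, a span of 4.87. In both probes wild-type replicate 3 was the highest array and knockout replicate 1 the next. Cht1 and Cht3 lie next to each other on chromosome 6 in the RefSeq rice annotation, with 0 protein-coding genes between them. Whether a probe of one picks up transcript of a related copy, here or among the PR10 and PR1 loci, was not tested.

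The spread between replicates was wide for these genes. Over all tested probes the median SD of log2 signal was 0.253 in the knockout and 0.127 in the wild-type, and the 90th percentile was 0.668 in the knockout and 0.366 in the wild-type. Of the 16 tested PR protein and chitinase probes, 12 had an SD above the 90th percentile in the knockout and 15 in the wild-type. Among the 13 of these probes that were well above background on all 6 arrays, the counts were 10 in the knockout and 12 in the wild-type. Of these 13, 8 are probes of Cht1 and 3 of Cht2 on the same RNA, so the counts are not counts of genes. At the brightest probes of Cht1, Cht2 and PBZ1 the SD was 1.19, 1.11 and 0.89 in the knockout. In the wild-type it was 0.85, 0.53 and 1.05 at these probes. Each of these SDs was above the 90th percentile of its genotype. The SDs of 2.88 at PR10b in the wild-type and of 1.91 and 1.96 at PR1a in the knockout rest on arrays that were not well above background, so their sizes are not measured spreads. The Cht1 probe D10423 was below the 90th percentile in both genotypes, at 0.123 in the knockout and 0.197 in the wild-type. The high array was not the same throughout: Cht1 and Cht2 were highest in knockout replicate 1, and PBZ1, PR10b and Cht3 in wild-type replicate 3. Differences in handling, time of day or infection between the plants were not tested, as the labels give no such record.

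**Figure D3:**
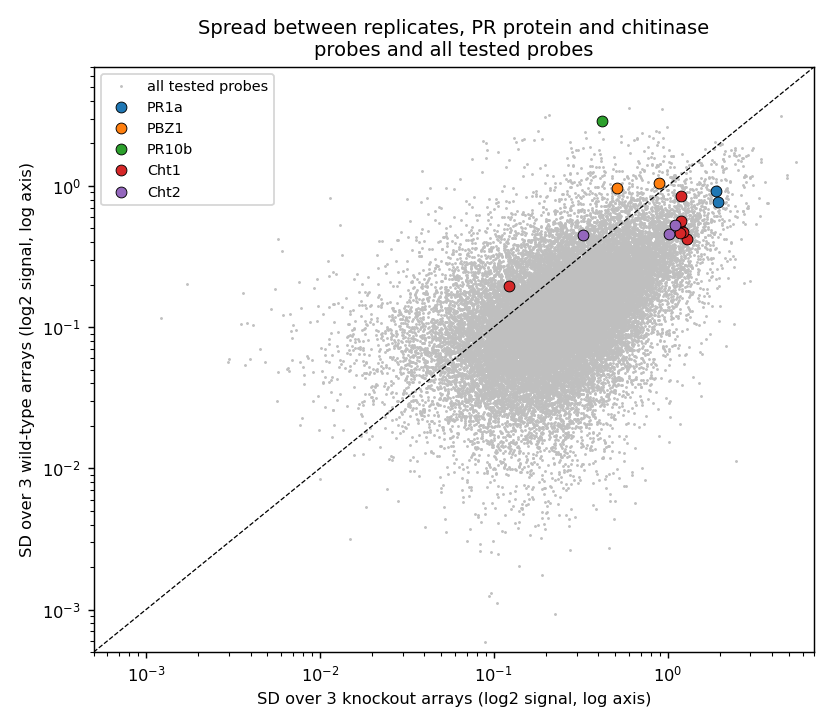
SD of log2 signal over the 3 knockout arrays (horizontal axis, log scale) against that over the 3 wild-type arrays (vertical axis, log scale) for each of the 32134 tested probes (grey) and the PR protein and chitinase probes (coloured by gene). The dashed line marks equal spread. Of the 16 coloured probes, 15 lie above the wild-type 90th percentile of 0.366, and 8 of the 16 belong to the locus Cht1.

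The loci with the most similar profiles were sought for the 2 tested genes of widest spread over the 6 arrays, PR10b and PR1a, whose dim arrays enter these profiles as read, by the root mean square difference of profiles centred on their own mean over the 6 arrays, among 21794 loci. For PR10b they were Os07g0636600, Os05g0436100 and Os01g0393100, at 0.930, 0.974 and 0.976 log2 units, so the nearest profile was still far from it. Os07g0636600 read -3.63, -3.01 and -1.70 in the knockout and -8.40, -7.99 and -3.66 in the wild-type. As at PR10b, wild-type replicate 3 was far above the other wild-type arrays, but it was here below every knockout array. For PR1a they were Os11g0444700, Os01g0850700 and Os01g0915000, at 0.419, 0.427 and 0.428. Os11g0444700 read 0.98, -1.66 and -0.98 in the knockout and 1.13, 0.70 and -0.0046 in the wild-type. This locus was bright on every array and divided the knockout arrays as PR1a did.

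Further PR, chitinase and beta-glucanase loci, some of other protein families, were listed to set beside these 8. For this and each later list, the share called over all tested loci was 3.41% and the median difference 0.0014. Of 10 further PR loci, 9 had probes and 3 were tested, with 0 called and a median difference of 1.27. Os01g0382400, a PR1 family member, read -4.55, -2.87 and -3.76 in the knockout and -5.43, -6.55 and -5.84 in the wild-type. Every knockout array was above every wild-type array. The difference of 2.21 ± 0.48 (SE; 95% interval 1.05 to 3.37) had an adjusted p of 0.0731. Over the alternative settings the adjusted p ran from 0.0419, without knockout replicate 1, to 0.217. It was 0.0495 with array weights and 0.155 with the replicate block. Normexp gave a difference of 1.12 with an adjusted p of 0.0791. The PR4 family locus Os11g0592200 read -2.49, -0.70 and -1.01 in the knockout and -2.19, -2.47 and -3.37 in the wild-type, a difference of 1.27 with an adjusted p of 0.270. PR4 proteins are small defence proteins, many of which bind chitin.

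Of 9 further chitinases and beta-glucanases, 5 were tested and 0 called, with a median difference of 0.71. That median is the difference of Cht9 (Os05g0399400), which entered the test through the knockout arrays alone. The median is therefore partly fixed by the filter. Cht4 (Os04g0493400) read -0.65, 1.31 and 0.33 in the knockout and -1.11, -1.26 and -1.79 in the wild-type. The genotypes did not overlap, and the difference of 1.72 ± 0.49 (SE) had an adjusted p of 0.137. Over the alternative settings the adjusted p ran from 0.0425, without knockout replicate 1, to 0.369. Gns1 (Os05g0375400), a beta-glucanase, read -3.76, -6.67 and -4.94 in the knockout and -3.68, -3.60 and -2.81 in the wild-type. Every knockout array was below every wild-type array, and the difference of -1.76 ± 0.72 had an adjusted p of 0.259. At Cht4 knockout replicate 1 was the lowest of the knockout arrays, whereas at Cht1 and Cht2 it was the highest.

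Of 14 regulators of salicylate signalling and defence, 12 were tested, and 1 passed, with a list median of 0.06. Over all tested loci 3.41% passed, and 2.17% were called higher in the knockout. WRKY71 (Os02g0181300), a transcription factor known from defence in rice, read -3.37, -3.44 and -3.44 in the knockout and -4.80, -4.08 and -4.51 in the wild-type at probe AK058773. It rose in the knockout by 1.04 ± 0.19 on the log2 scale (SE), 2.06-fold, with an adjusted p of 0.0488, and the genotypes did not overlap. The call ended under most alternatives and whenever any one array was left out, with adjusted p up to 0.187. The other WRKY71 probe, AY676927, differed by 0.24 with an adjusted p of 0.349.

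The chitin perception list held CEBiP, CERK1 and RLCK185, the kinase that CERK1 acts on, and 0 of its 3 tested loci passed, with a median difference of 0.03. CEBiP (Os03g0133400) read -5.00, -5.98 and -6.53 in the knockout and -5.61, -6.49 and -5.89 in the wild-type, a difference of 0.16 ± 0.43 with an adjusted p of 0.876. RLCK185 (Os05g0372100) read 1.52, 1.47 and 1.47 in the knockout and 1.61, 1.59 and 1.59 in the wild-type at its brightest probe, a difference of -0.11 with an adjusted p of 0.580. Its replicates differed far less than those of the chitinases. Of 10 loci for diterpenoid phytoalexins, the antimicrobial compounds of rice, 1 was tested. DPF (Os01g0196300), a transcription factor that controls their synthesis, read -8.93, -9.34 and -7.06 in the knockout and -6.89, -6.59 and -6.64 in the wild-type. In the knockout only replicate 3 was well above background, and the difference of -1.74 ± 0.58 had an adjusted p of 0.183, beside -0.25 with normexp. DPF entered the test through the wild-type arrays alone, so its difference is partly fixed by the filter. Without knockout replicate 3 the adjusted p was 0.0135, but no knockout array was then well above background, and the bound was only at least 1.2-fold lower. The other 9 phytoalexin loci were too dim to be tested.

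**Figure D4:**
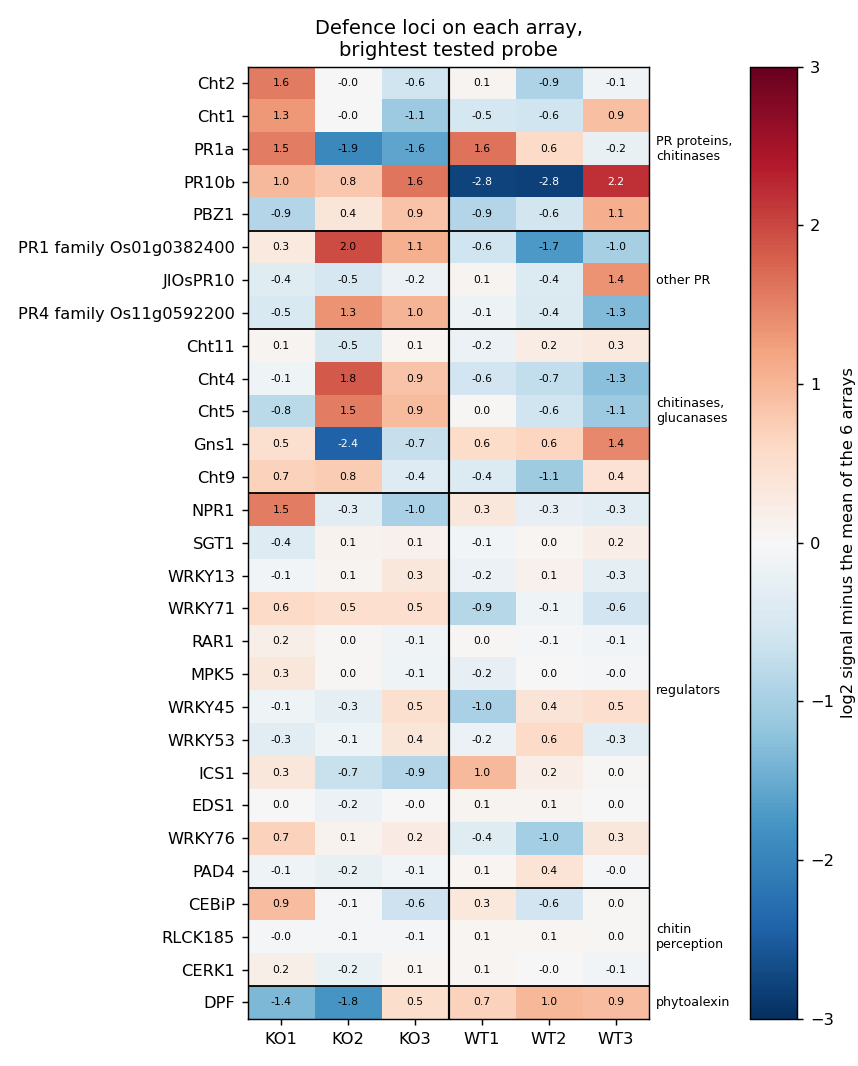
Log2 signal minus the mean of the 6 arrays (colour and printed value) of each of the 29 tested defence loci at the brightest tested probe, by array, knockout (KO) left of wild-type (WT). Rows are grouped by list; PR10b spans most, and no array is high throughout.

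Over these 29 tested defence loci, the highest array was knockout replicate 1 for 9 loci, knockout replicate 2 for 5 and knockout replicate 3 for 1, and wild-type replicate 1 for 3, wild-type replicate 2 for 4 and wild-type replicate 3 for 7. As shares these were 31.0%, 17.2% and 3.45% in the knockout and 10.3%, 13.8% and 24.1% in the wild-type. Over all tested loci the shares were 25.8%, 19.8% and 17.4% in the knockout and 11.9%, 15.0% and 10.1% in the wild-type. Knockout replicate 1 was thus most often the highest array among all loci as well as among the defence loci. These counts are descriptions without a test.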

How the data were processed

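Cy3-labelled total RNA from 3 knockout and 3 wild-type samples was hybridised to 1-colour Agilent rice arrays, per the labels' protocols. The deposited scanner files hold processed spot intensity made with Agilent Feature Extraction 12.0.3.1, per the submitters' processing notes, with flags, and were not scaled between arrays. The value table deposited by the authors holds the same intensity times 1 constant per array, linear and uncentred, with medians of 388, 385 and 387 in the knockout and 379, 379 and 376 in the wild-type. The choice of the constants was not stated. No column of another series was found.

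The log2 processed signal minus the 75th percentile of the array's gene spots was used. Of 43734 gene spots, 590 design controls and the 5 to 9 outlier-flagged spots per array were removed before averaging the spots of each probe. Well above background means over 0.5 of a probe's spots. Between 74.3% and 78.3% of spots per array were so, and 0 were saturated. To be tested, a probe had to be so in every array of 1 genotype or of both, and measured on 2 or more arrays of each. limma 3.58.1 in R 4.3.3 was fitted on all tested probes with genotype as the only term, two-sided, with calls at a Benjamini-Hochberg adjusted p under 0.05. The scripts were tested on simulated data. A bound on a fold compares the bright genotype's mean with the dim genotype's, after raising each dim array to the lowest signal well above background on it where the probe lay under that. P-values set each difference against the spread between these 3 samples per genotype and no others. limma draws the variance of each probe toward a value estimated from all tested probes.

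The 8 loci and all lists were chosen with earlier results of these data known. Named genes were the 8 loci, each list's called loci or else its 2 largest differences, and the 3 likest profiles of the 2 widest-spread loci. Gene names come from the given list and rice nomenclature; of the 8, PBZ1, Cht1, Cht2 and Cht3 occur in the RefSeq table (ASM3414082v1) on the locus's chromosome and 4 were not checked. For 3 probes, both of PR1a and D38170 of PBZ1, the annotated target is another accession than the locus's transcript. The labels state no pairing by replicate number. Correlations of same-numbered deviations from the genotype means were 0.409, -0.174 and 0.164, and those of other numbers ran from -0.487 to 0.349. The deviations within a genotype depend on each other, so these values cannot decide whether the samples were paired. Alternatives changed background correction, scaling, source of values, filter, flagged spots, block, variance model, array weights, probe choice and arrays left out.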

Additional observations from a re-analysis of the deposited data

How the results depend on the processing

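Of 258 comparisons of the 16 tested PR protein and chitinase probes with an alternative setting, 243 kept the direction and the side of the threshold, 13 reversed and 2 passed the threshold. The number of probes called was 0 in every setting except without wild-type replicate 3 (PR10b) and without knockout replicate 1 (PR1a probe AJ278436), so leaving out arrays gave 0 to 1. Each of these calls came from leaving out the only array of the dimmer genotype on which the probe was well above background. With 1 array left out, the difference ran from -0.47 to 0.72 at the brightest Cht1 probe, -0.056 to 1.11 at AK061042, -0.0026 to 1.16 at AK099339, -0.071 to 1.12 at X56063 and -0.11 to 1.06 at Z29961, with every low value without knockout replicate 1. It ran from -0.44 to 0.53 at Cht2 AK108949, from -0.15 to 0.82 at PBZ1 AK071613 and from -0.26 to 0.51 at CEBiP. Array weights reversed the brightest Cht1 probe (-0.29) and Cht2 AK108949 (-0.087). Probes called over the whole array numbered 1016, against 645 without a filter, 458 with the replicate block and 143 to 1539 with 1 array left out. The pathway lists held 1 call, WRKY71, against 0 with normexp, quantile scaling, the authors' table, no filter, the stricter filter, the replicate block or limma-trend (adjusted p 0.0612, 0.0587, 0.0530, 0.0830, 0.0523, 0.0986 and 0.0566 for WRKY71), and 0 to 2 with 1 array left out. With array weights the 1 call was Os01g0382400 in place of WRKY71. The replicate block changed no call of a PR protein or chitinase. The stricter filter left no value for PR1a and PR10b, which are dim in part of the arrays, and slide could not be a block because each slide holds 1 genotype. Normexp used the median spot signal, as the mean is not a column of the files. The cause of these changes was not tested.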
